A study of Mus musculus with 2 samples.

Results

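The 6 connexin genes Gja1, Gja4, Gja5, Gjb2, Gjb5 and Gjc1 were described in single mouse mammary cells. They were taken by symbol, and each matched 1 of the 31053 genes in the count tables. Their identifiers in those tables are ENSMUSG00000050953 for Gja1, ENSMUSG00000050234 for Gja4, ENSMUSG00000057123 for Gja5, ENSMUSG00000046352 for Gjb2, ENSMUSG00000042357 for Gjb5 and ENSMUSG00000034520 for Gjc1.

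Connexins are membrane proteins that assemble into hemichannels, and hemichannels of adjoining cells dock into gap junctions, which pass ions and small molecules between cells. Gja1 encodes Cx43, the connexin of the myoepithelial (basal) layer of the mammary gland and of many fibroblasts. Gja4 and Gja5 encode Cx37 and Cx40, which couple endothelial cells of arteries, and Gjc1 encodes Cx45, known from smooth muscle and the heart. Gjb2 encodes Cx26, a connexin of luminal and secretory mammary cells, and Gjb5 encodes Cx31.1, known from stratified epithelia such as the epidermis.

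Cells of C57BL/6 mice had been sorted as CD24high CD29+, as the submitters write the gate, and measured with 10x Genomics 3' chemistry. Most cells that the authors kept were basal-like, as given below. There were 2 libraries, 1 labelled Fgd5-ko and 1 labelled WT; the titles add the words cko and P4, which the sources used here do not explain, and neither the deleted part of Fgd5, the driver of the deletion, the animals' age nor the number of animals is given. With 1 library per group no difference has a replicate check, so no p-value is given, and every interval is an exact 95% interval for counting error only. The authors' table kept 6064 cells of the library labelled Fgd5-ko and 6588 of the library labelled WT, with medians of 15712 and 4954 unique molecules (UMIs) per cell. Fgd5, which encodes an exchange factor for Cdc42, went against the label: basal-like cells had 4.05 CPM (419 UMIs) in the library labelled Fgd5-ko and 0.840 CPM (30 UMIs) in the library labelled WT. The 3' tags may lie outside the deleted part and then check nothing. Below, "Fgd5-ko" and "WT" mean the libraries with these labels.

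Levels are counts per 1000000 UMIs (CPM), summed over the cells of a class in 1 library. Of the listed cells, 6029 in Fgd5-ko and 6360 in WT were basal-like, 17 and 118 were luminal progenitor and alveolar-like (luminal progenitor-like below), and 5 and 53 were hormone-sensing luminal-like. Vessel, fibroblast and Schwann-like classes came from 1626 Fgd5-ko and 3490 WT barcodes outside the authors' table. Clusters that no marker list led clearly stayed unnamed (70 listed cells and 749 other barcodes), but some named clusters also held markers of another class, as given below. The classes included 28 arterial-like barcodes in Fgd5-ko and 299 in WT, 33 and 74 pericyte-like, 51 and 120 vascular smooth muscle-like, and 540 and 1020 fibroblast-like. All 10 endothelial and all 10 arterial markers had UMIs in the arterial-like barcodes of both libraries, and so did all 9 pericyte markers in the pericyte-like barcodes. The libraries shared 34 barcodes. Depth per barcode was higher in Fgd5-ko in every class, and its part in the results was not tested beyond the alternatives named with them.

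**Figure D1:**
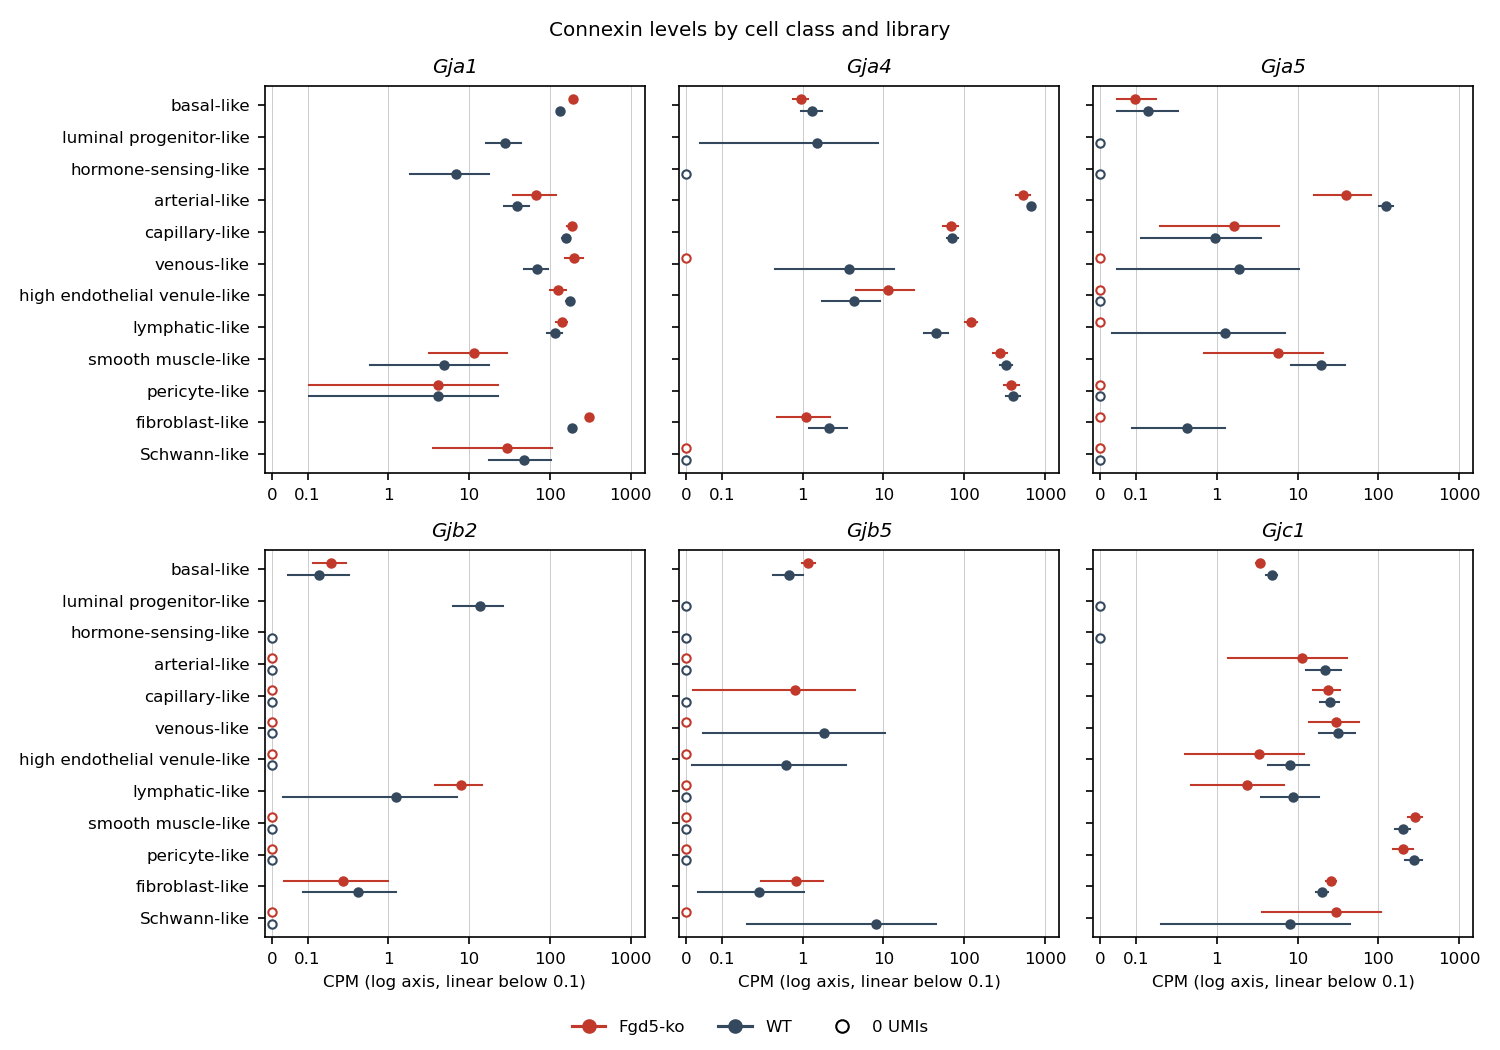
Level of each connexin in CPM (log axis, linear below 0.1) in 12 cell classes, for Fgd5-ko (red, upper point) and WT (blue, lower point); bars are 95% Poisson intervals, open points are classes with 0 UMIs, and classes with under 20 cells in a library are not drawn. Gja1 was high in basal-like, fibroblast-like and most endothelial-like classes and near 4 CPM in pericyte-like barcodes, whereas Gja4 was highest in arterial-like and mural classes and Gja5 in arterial-like barcodes.

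Promoter sequences were available from RefSeq (build GRCm38.p6) for 5 of the 6 genes, all but Gjc1. The 250 bases before the annotated start are shown for Gja1, the member with most UMIs in basal-like cells, and for Gja4 and Gja5, the pair that was highest in arterial-like barcodes. Each is written 5′ to 3′ on the gene's strand. Capitals mark TGANTCA, the letters bound by AP-1 factors, and GGGCGG, the GC box, searched on both strands.
Gja1: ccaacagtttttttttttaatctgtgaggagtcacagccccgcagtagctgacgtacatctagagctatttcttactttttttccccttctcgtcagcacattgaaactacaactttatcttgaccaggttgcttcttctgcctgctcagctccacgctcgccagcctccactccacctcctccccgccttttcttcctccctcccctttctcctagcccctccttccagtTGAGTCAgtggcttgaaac
Gja4: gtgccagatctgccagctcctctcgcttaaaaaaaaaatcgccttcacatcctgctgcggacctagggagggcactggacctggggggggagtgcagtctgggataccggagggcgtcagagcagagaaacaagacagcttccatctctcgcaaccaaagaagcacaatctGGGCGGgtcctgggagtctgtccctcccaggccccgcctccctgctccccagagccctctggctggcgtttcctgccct
Gja5: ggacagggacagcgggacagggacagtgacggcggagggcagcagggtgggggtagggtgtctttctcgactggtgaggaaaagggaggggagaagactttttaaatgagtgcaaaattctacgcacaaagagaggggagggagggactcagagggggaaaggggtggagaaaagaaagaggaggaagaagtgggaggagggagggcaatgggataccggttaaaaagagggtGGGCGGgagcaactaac
The Gja1 window is chr10:56377050-56377299 (plus strand), the Gja4 window chr4:127314040-127314289 (minus strand) and the Gja5 window chr3:97032152-97032401 (plus strand). Gja1 held TGANTCA once, 19 to 13 bases before the start; 6.75% of 32851 promoter windows of this length held it. Gja4 and Gja5 each held GGGCGG once, 79 to 74 and 17 to 12 bases before the start, as did 32.7% of all windows. CCAAT and TATAAA, held by 33.9% and 12.4% of all windows, were not in these 3 windows. These are matches of letters and do not show that a factor binds.

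Gja1 was well detected in the sorted basal-like cells. In basal-like cells it stood at 194 CPM in Fgd5-ko (20074 UMIs, interval 191 to 197) and at 134 CPM in WT (4784 UMIs, 130 to 138). It was found in 86.9% of basal-like cells in Fgd5-ko and in 45.75% in WT. With each cell thinned to 2000 UMIs, which left out 61 WT cells, the shares were 30.5% in Fgd5-ko (interval 29.3 to 31.7%) and 22.7% in WT (21.7 to 23.8%). As a background for free RNA, listed hormone-sensing luminal-like cells of WT had Gja1 in 4 of 53 cells (7.55%) unthinned. After thinning it was in 0 of 53, which allows a share of up to 5.66%. These cells had a median of 12060 UMIs, against 4947 in WT basal-like cells. WT barcodes of this luminal class outside the table, with a median of 18773 UMIs, had Gja1 in 10 of 59 (17 UMIs, 14.2 CPM). No such background is given for Fgd5-ko, where the class had 5 listed cells.

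Fibroblast-like barcodes had the highest Gja1 level in both libraries, 308 CPM in Fgd5-ko (2237 UMIs) and 190 CPM in WT (1338 UMIs). In Fgd5-ko the order went on with venous-like (201 CPM), basal-like (194 CPM) and capillary-like (186 CPM) barcodes, whose intervals overlapped. In WT, high endothelial venule-like (176 CPM) and capillary-like (158 CPM) barcodes stood above basal-like cells (134 CPM), and the intervals of fibroblast-like and high endothelial venule-like barcodes overlapped. Arterial-like barcodes had less, 67.8 CPM in Fgd5-ko (12 UMIs) and 39.3 CPM in WT (31 UMIs). Mural classes were nearly without it: pericyte-like barcodes had 1 UMI in each library (4.14 CPM in Fgd5-ko and 4.10 CPM in WT), and smooth muscle-like barcodes had 11.6 CPM in Fgd5-ko and 4.84 CPM in WT.

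Luminal-like cells had little Gja1. Luminal progenitor-like cells had 51.2 CPM in Fgd5-ko (15 UMIs in 6 of 17 cells, 6 of them in 1 cell) and 27.4 CPM in WT (18 UMIs in 15 of 118 cells). The 12 basal markers summed to 4496 CPM in Fgd5-ko and 3250 CPM in WT in these cells, against 17482 and 25484 CPM in basal-like cells, and their part in the Gja1 level was not tested. Hormone-sensing luminal-like cells had 1 Gja1 UMI in the 5 cells of Fgd5-ko (9.34 CPM) and 4 UMIs in the 53 cells of WT (6.84 CPM).

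Between the libraries, Gja1 in basal-like cells was higher in Fgd5-ko by 0.53 on the log2 scale (interval 0.49 to 0.58), or 1.45-fold. The median gene of the 15060 with at least 20 UMIs was itself higher by 0.23, so Gja1 lay 0.30 above it, and TMM scaling shifted every ratio of this class by -0.17. Basal-like cells were split into states, and among Fgd5-ko states of at least 100 cells Gja1 ranged from 139 CPM in a histone-led state (Hist1h1b, Hist1h3c, Hist1h2ae) to 219 CPM in a state led by Slpi, Gm8797 and Ankrd1. In WT it lay at 134 CPM in the main state led by Ptx3, Tspan8 and Fgg, at 143 CPM in a state led by Gm33651, Lbhd2 and Serpinb11, and at 116.5 CPM in one led by Kctd4, Kcnj2 and Txnip. The Fgd5-ko state led by 1600014C10Rik, Iigp1 and Gm33651, which also has Ramp1 and Col11a1 among its leading genes, had 202 CPM. The Ly6d state was low in both libraries, with 101 CPM in Fgd5-ko (60 UMIs in 37 cells) and 95.1 CPM in WT (88 UMIs in 107 cells), and there the intervals overlapped. Most states held almost only 1 library and may be that library, so these orders were read within each library.

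**Figure D2:**
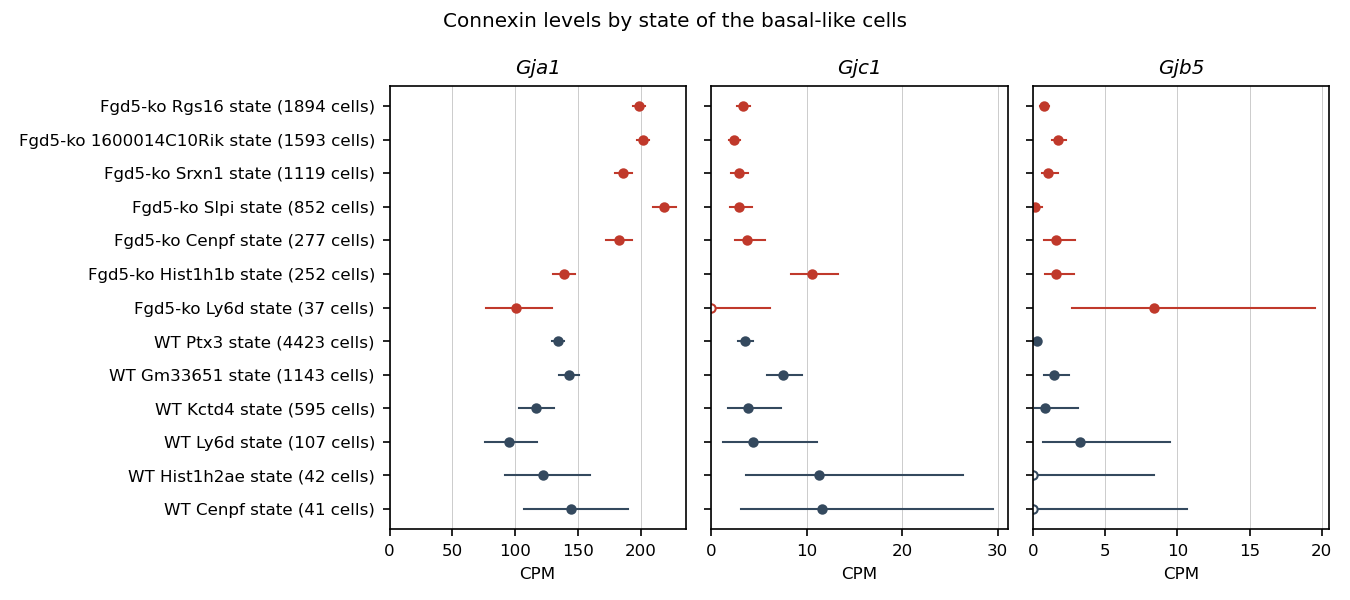
CPM of Gja1, Gjc1 and Gjb5 in the states of basal-like cells, named by their first leading gene, with Fgd5-ko states above WT states; bars are 95% Poisson intervals and open points are 0 UMIs. Gja1 was lowest in the Ly6d state of each library, and among Fgd5-ko states Gjc1 was highest in the histone-led state (10.6 CPM).

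In fibroblast-like barcodes Gja1 was higher in Fgd5-ko by 0.70 (interval 0.60 to 0.79), and 17.8% of 12142 genes were at least 1.5-fold higher there. The libraries filled this class with different clusters: a cluster with leading gene Ptx3 was 205 Fgd5-ko barcodes and 0 WT barcodes, and one with leading gene Pi16 was 3 and 389. In a cluster that both libraries filled, with leading gene Col3a1, Gja1 stood at 342 CPM in Fgd5-ko (186 barcodes) and 299.7 CPM in WT (212 barcodes), a log2 ratio of 0.19 (0.02 to 0.37). In the cluster with leading gene Apod it stood at 228 CPM in Fgd5-ko and 108 CPM in WT, a log2 ratio of 1.07 (0.49 to 1.70). Another fibroblast-like cluster (60 Fgd5-ko and 98 WT barcodes) also held the 12 basal markers, which summed to 9801 CPM in Fgd5-ko and 10304 CPM in WT beside 14726 and 16822 CPM of the 8 fibroblast markers. Without it, fibroblast-like barcodes had 320 CPM of Gja1 in Fgd5-ko and 190 CPM in WT, a log2 ratio of 0.75.

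Venous-like barcodes had 201 CPM of Gja1 in Fgd5-ko (60 UMIs, 27 barcodes) and 68.7 CPM in WT (37 UMIs, 151 barcodes). Of the 60 UMIs, 17 lay in 1 barcode. The log2 ratio was 1.55 (0.94 to 2.18), and 0.52 among barcodes of 4000 to 12000 UMIs (17 and 20 UMIs). In this class 20.5% of 4832 genes were at least 1.5-fold higher. High endothelial venule-like barcodes had 127 CPM of Gja1 in Fgd5-ko (20 barcodes) and 176 CPM in WT (164 barcodes), a log2 ratio of -0.48 (-0.86 to -0.11), beside 12% of 6631 genes at least 1.5-fold lower, and of -0.81 with TMM scaling. Only 3 of these Fgd5-ko barcodes lay between 4000 and 12000 UMIs, where the ratio was 0.74. In barcodes thinned to 2000 UMIs it was 0.23 (8 and 54 UMIs). The direction thus differed between these settings, on few barcodes or UMIs, and the cause was not tested.

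Gja4 was a connexin of arterial-like and mural barcodes. Arterial-like barcodes had 537 CPM in Fgd5-ko (95 UMIs, interval 434 to 656) and 681 CPM in WT (538 UMIs, 625 to 741). Pericyte-like barcodes followed with 385 CPM in Fgd5-ko (93 UMIs) and 405.5 CPM in WT (99 UMIs), and smooth muscle-like barcodes with 280.5 CPM in Fgd5-ko (97 UMIs) and 329 CPM in WT (136 UMIs). The intervals of arterial-like and pericyte-like barcodes overlapped in Fgd5-ko and not in WT. Capillary-like barcodes had 68.7 CPM in Fgd5-ko and 71.6 CPM in WT, and venous-like barcodes had 0 UMIs in Fgd5-ko, which allows up to 10.1 CPM, and 3.72 CPM in WT (2 UMIs).

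Markers of endothelium were present beside Gja4 in the mural classes. In pericyte-like barcodes the 10 endothelial markers summed to 510 CPM in Fgd5-ko (9 of 10 with a UMI) and 672 CPM in WT (8 of 10), against 8930 and 8711 CPM in arterial-like barcodes, and the 10 arterial markers summed to 58.0 and 53.2 CPM, against 4103 and 5924 CPM. Of the 10 arterial markers, 3 had UMIs in pericyte-like barcodes of Fgd5-ko and 6 in those of WT. Stmn2 and Gkn3 were among those at 0 in both libraries. The arterial markers together had 14 UMIs in pericyte-like barcodes of Fgd5-ko and 13 in those of WT, beside 93 and 99 Gja4 UMIs. The part of endothelial RNA in the Gja4 level of pericyte-like barcodes was not tested. In smooth muscle-like barcodes the arterial markers summed to 312 CPM in Fgd5-ko and 547 CPM in WT, with 10 of 10 present, and their part in the Gja4 level was not tested. A further cluster, unnamed because it mixed endothelial and pericyte markers (Ednrb, Rgs5, H2-M9), had 371.5 CPM of Gja4 in Fgd5-ko (339 UMIs in 60 barcodes, 55 of them in 1) and 286 CPM in WT (193 barcodes).

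**Figure D3:**
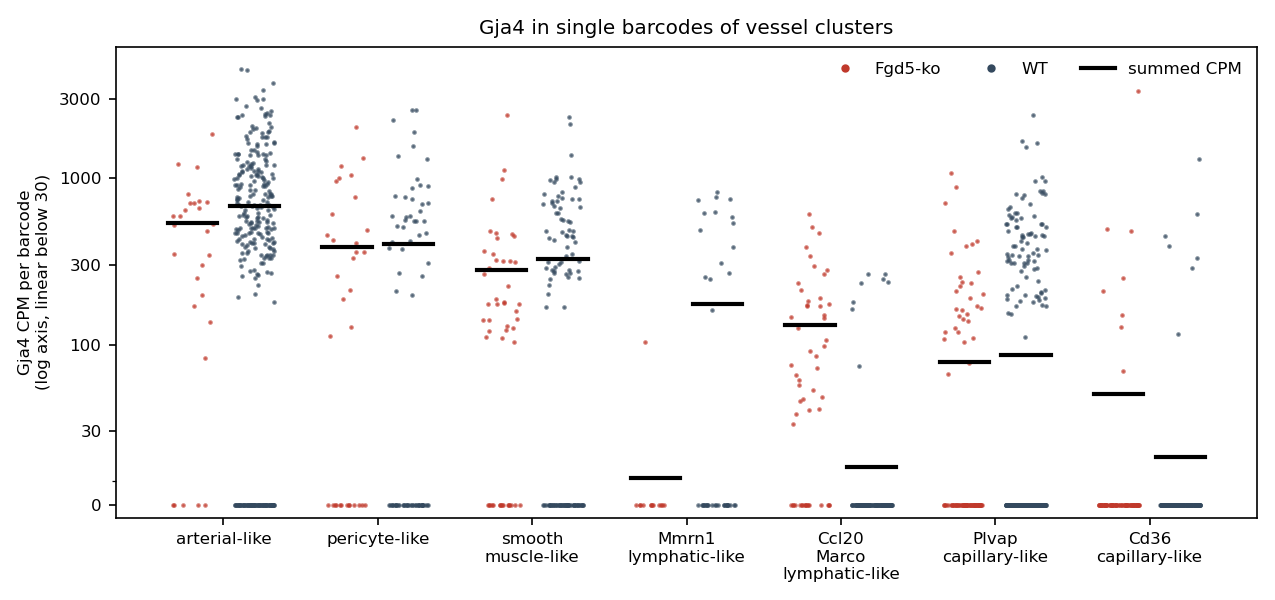
Gja4 CPM of single barcodes (points, log axis, linear below 30) in 7 vessel clusters for Fgd5-ko (red, left) and WT (blue, right), with the CPM of the summed cluster as a black bar. Summed levels stood between 280 and 681 CPM in arterial-like, pericyte-like and smooth muscle-like barcodes of both libraries. The 2 lymphatic-like clusters ran in opposite directions between libraries, with only 13 Fgd5-ko barcodes in the Mmrn1 cluster.

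Lymphatic-like barcodes split into 2 unlike clusters, in which the summed Gja4 levels of the libraries ran in opposite directions. The Mmrn1 cluster held only 13 Fgd5-ko barcodes, so no ratio is given for it. In the cluster led by Ccl20, Marco and Lyve1, Gja4 had 130 CPM in Fgd5-ko (155 UMIs, in 37 of 54 barcodes) and 15.5 CPM in WT (10 UMIs, 125 barcodes), a log2 ratio of 3.08 (2.16 to 4.16). In the cluster led by Mmrn1, Nts and Lyve1 it had 11.3 CPM in Fgd5-ko (1 UMI, 13 barcodes) and 176 CPM in WT (26 UMIs, 15 of 40 barcodes). For both clusters together the log2 ratio was 1.43 (0.90 to 1.996), with 17.9% of 8796 genes at least 1.5-fold higher. The first cluster had a median of 20583.5 UMIs per barcode in Fgd5-ko and 4688 in WT. The 7 lymphatic markers summed to 2233 and 4073 CPM in it, against 32431 and 23682 CPM in the Mmrn1 cluster. Its lymphatic-like name thus rests on low marker levels. Pericyte markers summed to 377 CPM in it in Fgd5-ko and 66.5 CPM in WT, with 4 of 9 found in each. In pericyte-like barcodes they summed to 3095 and 3711 CPM. Smooth muscle markers summed to 1120 and 1290 CPM in the first cluster, and basal markers to 1388 and 2044 CPM. The part of depth and markers in the Gja4 difference was not tested. Among lymphatic-like barcodes of 4000 to 12000 UMIs (20 and 89 barcodes) only 3 Fgd5-ko and 14 WT Gja4 UMIs were left, with a log2 ratio of -0.56.

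In basal-like cells Gja4 was at 0.947 CPM in Fgd5-ko (98 UMIs) and 1.29 CPM in WT (46 UMIs), a level whose intervals overlapped those of fibroblast-like barcodes (1.10 and 2.13 CPM). In WT, 9 of the 46 UMIs lay in 5 of the 23 cells of a histone-led cluster, where the 10 endothelial markers summed to 1043 CPM, against 42.8 CPM in the 258 Fgd5-ko cells of the cluster. In Fgd5-ko, 12 of the 98 UMIs lay in 1 cell.

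Gja5 was highest in arterial-like barcodes. There it had 39.6 CPM in Fgd5-ko (7 UMIs in 7 of 28 barcodes, interval 15.9 to 81.5) and 124 CPM in WT (98 UMIs in 72 of 299 barcodes, 101 to 151). Smooth muscle-like barcodes came next with 5.78 CPM in Fgd5-ko (2 UMIs) and 19.4 CPM in WT (8 UMIs), beside the arterial markers given above. Basal-like cells had 0.0967 CPM in Fgd5-ko (10 UMIs) and 0.140 CPM in WT (5 UMIs), and capillary-like barcodes had 2 UMIs in each library. Pericyte-like barcodes, which were high in Gja4, had 0 Gja5 UMIs, which allows up to 12.4 CPM in Fgd5-ko and 12.3 CPM in WT.

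Arterial-like barcodes with a Gja5 UMI mostly had Gja4 too, 6 of 7 in Fgd5-ko and 53 of 72 in WT, but so did 23 of all 28 barcodes in Fgd5-ko and 215 of all 299 in WT. At 2000 UMIs per barcode, which left out 112 WT barcodes, Gja4 was found in 53.6% of arterial-like barcodes in Fgd5-ko (interval 33.9 to 72.5%) and in 69.5% in WT (62.4 to 76.0%), and Gja5 in 7.14% and 18.7%. The log2 ratio of Gja5 in arterial-like barcodes was -1.65 (-3.00 to -0.55), where 23.5% of 5577 genes were at least 1.5-fold lower. It was 0.06 among the 20 Fgd5-ko and 40 WT barcodes of 4000 to 12000 UMIs, on 5 and 8 UMIs. The log2 ratio of Gja4 there was -0.34 (-0.67 to -0.03), and in that range of UMIs 0.41. The Gja1 ratio in arterial-like barcodes, 0.79 (-0.31 to 1.79), rested on 12 and 31 UMIs, and 18.1% of genes were at least 1.5-fold higher.

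Gjc1 was highest in the mural classes. Smooth muscle-like barcodes had 283 CPM in Fgd5-ko (98 UMIs, interval 230 to 345) and 201 CPM in WT (83 UMIs, 160 to 249). Pericyte-like barcodes had 203 CPM in Fgd5-ko (49 UMIs) and 274 CPM in WT (67 UMIs). The order of the 2 classes thus differed between the libraries, but their intervals overlapped in both. Levels were lower in venous-like (30.2 CPM in Fgd5-ko and 31.6 CPM in WT), fibroblast-like (26.0 and 20.1 CPM), capillary-like (23.4 and 25.0 CPM) and arterial-like barcodes (11.3 and 21.5 CPM), whose intervals overlapped. Schwann-like barcodes had 29.8 CPM in Fgd5-ko on 2 UMIs and 8.01 CPM in WT on 1 UMI. Listed cells of both luminal classes had 0 UMIs, which in WT allows up to 4.57 CPM in luminal progenitor-like and 5.13 CPM in hormone-sensing luminal-like cells.

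Gja4 and Gjc1 met in single mural barcodes. Of smooth muscle-like barcodes with a Gjc1 UMI, 27 of 38 in Fgd5-ko and 29 of 52 in WT also had a Gja4 UMI, against 35 of all 51 barcodes in Fgd5-ko and 64 of all 120 in WT. Among pericyte-like barcodes these counts were 13 of 22 in Fgd5-ko and 27 of 42 in WT, against 20 of 33 and 37 of 74.

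In basal-like cells Gjc1 was low, 3.43 CPM in Fgd5-ko (355 UMIs) and 4.76 CPM in WT (170 UMIs), a log2 ratio of -0.47 (-0.74 to -0.20) that was -1.05 among cells of 4000 to 12000 UMIs. Within Fgd5-ko it stood at 10.6 CPM in the histone-led state (73 UMIs in 54 of 252 cells) and between 2.405 and 3.79 CPM in the 5 other states of at least 100 cells. In WT the histone-led state had 11.3 CPM on 5 UMIs, and the state led by Gm33651 had 7.50 CPM (67 UMIs), against 3.49 CPM in the main state. Of barcodes outside the table, a basal-like cluster led by Ube2c and histone genes had 9.80 CPM in Fgd5-ko and 12.7 CPM in WT. The WT Cenpf state (41 cells), led by genes of mitosis, had as much as the WT histone-led state, 11.55 CPM on 4 UMIs, and the interval of the histone-led state (3.68 to 26.4 CPM) overlapped that of the main WT state (2.76 to 4.35 CPM). In the listed cells a higher Gjc1 level of the histone-led state was thus clear of counting error only in Fgd5-ko.

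Gjb2 was rare in this sort. In listed luminal progenitor-like cells it had 0 UMIs in the 17 cells of Fgd5-ko, which allows up to 10.25 CPM, and 13.7 CPM in WT (9 UMIs in 7 of 118 cells). Luminal progenitor-like barcodes outside the table had 25.2 CPM in Fgd5-ko (7 UMIs in 2 of 6 barcodes) and 22.8 CPM in WT (8 UMIs in 6 of 28 barcodes). Listed hormone-sensing luminal-like cells had none, and basal-like cells had 0.193 CPM in Fgd5-ko (20 UMIs) and 0.140 CPM in WT (5 UMIs). Of the 20 UMIs in Fgd5-ko, 14 lay in 3 of the 37 cells of the Ly6d state, and 12 of those in 1 cell. Another basal-like barcode outside the table, in a cluster led by Krt6a, held 17 Gjb2 UMIs. The Ccl20 and Marco cluster of lymphatic-like barcodes had 10 UMIs in 8 of 54 barcodes in Fgd5-ko (8.41 CPM) and 1 UMI in WT.

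Gjb5 was low in every class. Basal-like cells had 1.18 CPM in Fgd5-ko (122 UMIs in 115 of 6029 cells) and 0.672 CPM in WT (24 UMIs in 24 of 6360 cells), and in both libraries the interval overlapped that of fibroblast-like barcodes (0.827 CPM on 6 UMIs in Fgd5-ko and 0.284 CPM on 2 UMIs in WT). Listed luminal-like cells had 0 UMIs in both libraries. Within Fgd5-ko it ran from 1 UMI in the 852 cells of the Slpi state (0.105 CPM, interval 0.00265 to 0.583) to 1.73 CPM in the state led by 1600014C10Rik (54 UMIs, 1.30 to 2.26) and 8.38 CPM in the Ly6d state (5 UMIs in 4 of 37 cells, 2.72 to 19.6). In WT the main state had 0.265 CPM (6 UMIs, 0.0972 to 0.577), the Gm33651 state 1.455 CPM (13 UMIs, 0.775 to 2.49) and the Ly6d state 3.24 CPM (3 UMIs, 0.669 to 9.47). The Ly6d state thus had the highest Gjb5 level of each library, on 5 and 3 UMIs. Its interval overlapped those of the Cenpf and histone-led states in Fgd5-ko and of every state but the main one in WT. An unnamed cluster outside the table that mixed several markers (S100a8, S100a9, Ngp) had 51.1 CPM in Fgd5-ko (11 UMIs in 8 of 21 barcodes).

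In basal-like cells 5 of the 6 connexins had at least 20 UMIs over both libraries, and 1 of them, Gjb5, was at least 1.5-fold higher in Fgd5-ko, with a log2 ratio of 0.81 (0.17 to 1.51); none was at least 1.5-fold lower. Of all genes with as many UMIs, 26.9% were at least 1.5-fold higher and 10.5% at least 1.5-fold lower, so the count of connexins was no larger than that background. With TMM or median ratio scaling, Gjb5 stayed higher and Gja4 and Gjc1 passed 1.5-fold lower. The shares of all genes were not recomputed with these scalings. The Gjb5 ratio was -0.34 among cells of 4000 to 12000 UMIs, on 8 and 19 UMIs. The median log2 ratio of the 5, beside 0.235 for all genes, was 0.465, the ratio of Gjb2. It was -0.464 without the barcode with most UMIs of each gene, -0.09 among cells of 4000 to 12000 UMIs and -0.52 in cells thinned to 2000 UMIs, so no direction of the connexins together was read.

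**Figure D4:**
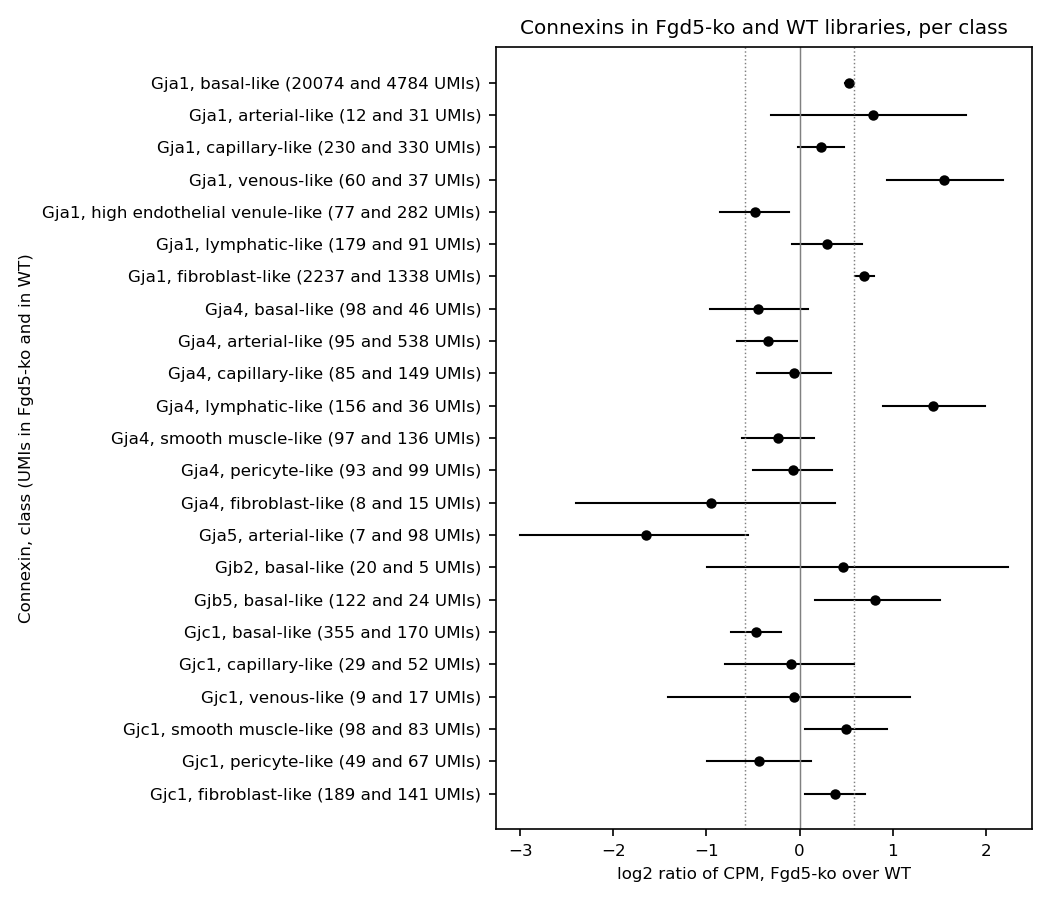
Log2 ratio of CPM, Fgd5-ko over WT, for the 23 pairs of connexin and class with at least 20 UMIs; bars are exact 95% intervals for counting error, dotted lines mark 1.5-fold. Of the pairs 5 lay at least 1.5-fold higher, 2 at least 1.5-fold lower and 16 within. Of all genes with as many UMIs, 17.8% to 31.1% per class lay higher and 10.5% to 24% lower.

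Across the 9 classes 23 pairs of connexin and class had at least 20 UMIs. Of these, 5 were at least 1.5-fold higher in Fgd5-ko (Gjb5 in basal-like, Gja1 in fibroblast-like, venous-like and arterial-like, and Gja4 in lymphatic-like barcodes). Another 2 were at least 1.5-fold lower (Gja5 in arterial-like and Gja4 in fibroblast-like barcodes). Of all genes with as many UMIs, 17.8% to 31.1% per class were that much higher and 10.5% to 24% that much lower. The counts of pairs were therefore not read as a result about connexins. The Gja4 ratio in fibroblast-like barcodes, -0.95 on 8 Fgd5-ko and 15 WT UMIs, was 0.76 among barcodes of 4000 to 12000 UMIs and -2.32 without the cluster high in basal markers (3 and 15 UMIs); 13.2% of genes were at least 1.5-fold lower in this class. With TMM scaling, for which the share of all genes was not recomputed, Gja1 in high endothelial venule-like barcodes also passed 1.5-fold lower. In capillary-like, pericyte-like and smooth muscle-like barcodes none of the 3, 2 and 2 connexins with enough UMIs was past 1.5-fold; of all genes with as many UMIs there, 17.9%, 22.3% and 23.1% were higher and 13.7%, 20.2% and 15.5% lower.

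Of other connexins, Gjb6 had 0.155 CPM in Fgd5-ko (16 UMIs) and 0.420 CPM in WT (15 UMIs) in basal-like cells.

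Panx1, a pannexin that forms channels of single membranes, had 33.6 CPM in basal-like cells of Fgd5-ko and 12.2 CPM in WT, a log2 ratio of 1.465 (interval 1.32 to 1.61). Panx2 had 0.609 CPM there in Fgd5-ko and 1.12 CPM in WT, and Panx3 had 0.271 CPM in Fgd5-ko and 0.168 CPM in WT. Gjc3, a connexin of myelinating cells in mice, had 357 CPM in Schwann-like barcodes of Fgd5-ko (24 UMIs) and 176 CPM in WT (22 UMIs).

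Of 16 genes of connexin partners measured in basal-like cells (scaffolds, kinases and adhesion proteins), 5 were at least 1.5-fold higher in Fgd5-ko, 3 at least 1.5-fold lower and 8 within, with a median log2 ratio of 0.26 beside 0.235 for all genes. Of all genes, 26.9% were at least 1.5-fold higher and 10.5% at least 1.5-fold lower. Those with the largest ratios were Nov, a secreted protein that binds Cx43, with 0.126 CPM in Fgd5-ko and 0.336 CPM in WT, and Dbn1, which encodes the actin-binding drebrin, with 12 and 23.2 CPM. At its low level Nov had a wide interval, with a log2 ratio of -1.42 (-2.67 to -0.158), against -0.948 (-1.08 to -0.820) for Dbn1. On the higher side were Tjp1, the scaffold ZO-1 that binds the tail of Cx43, with 68.5 CPM in Fgd5-ko and 36.9 CPM in WT, and the kinase gene Csnk1d with 66.0 and 36.2 CPM.

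The genes whose levels were most like those of each connexin were ranked by Pearson correlation of log2(CPM + 1) over 22 sums of class and library, among 10798 genes. The sums share 2 libraries and differ in depth, so the correlations are a description. For Gja4 they were Kalrn (r = 0.88), Rasgrp2, Rgs5, Gdf15 and Rnf152. For Gja5 they were Lmod3 (r = 0.97), Gm609, Igf2, Gkn3 and Sgpp2, and for Gjc1 they were Sept7 (r = 0.88), Rrad, Higd1b, Sgip1 and Sparcl1. Rgs5, Gkn3 and Higd1b were among the markers that named the mural and arterial classes, and Higd1b is the coding gene next to Gjc1 on chromosome 11. For Gja1 they were Cpne8 (r = 0.88), Dchs1, Tspan5, Tgfbr1 and Sh3bp5. For Gjb2 they were Spns3 (r = 0.91), Ehf, Tspan33, Atp11a and Bcl11a, and for Gjb5 they were Rhpn1 (r = 0.84), Lrrtm1, Egfem1, Slitrk6 and Cnksr2; the highest sums of these 2 connexins held 9 and 1 UMIs, so nothing was read from them. Among the members themselves the highest values were 0.64 between Gja4 and Gja5 and 0.54 between Gja4 and Gjc1. The lowest was -0.495 between Gjb2 and Gjc1, from which nothing was read either, as Gjb2 had so few UMIs.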

How the data were processed

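Single cells of 1 library labelled Fgd5-ko and 1 labelled WT were measured. The deposited matrices hold UMI counts, per the file headers written by Cell Ranger software version 3.1.0; the submitters' processing notes also name Seurat 3.0 and mm9. A deposited table of t-SNE coordinates, a score per cell made by the authors, served only as the list of kept cells. Listed cells and other barcodes (at least 1000 UMIs and 500 genes, at most 15% mitochondrial counts) were clustered separately with scanpy 1.11.5 (2000 variable genes without connexins and pannexins, 30 components, 15 neighbours, Leiden resolution 1, no batch correction). Basal-like states used resolution 0.5.

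Clusters were named from 13 marker lists plus 5 endothelial ones where the best list led by a log2 margin of 1 and at least 3 of its markers were in 10% of cells, with no more leading genes from another class; these limits were set after seeing the data. No doublet caller was run, and named clusters can hold mixed cells; a fibroblast-like one high in basal markers was left out in an alternative added after seeing the data. UMIs were summed per class and library. With 1 library per group no test was run; ratios used genes with at least 20 UMIs over both libraries and a fold of 1.5, and scripts were tested on simulated data. The total counts were 136697801 in Fgd5-ko and 60566053 in WT. TMM scaling used edgeR 4.0.16 in R 4.3.3. The members and gene lists were chosen with earlier results of these data known. The text names the members, family genes with at least 20 UMIs in a class (some are not reported here), the 4 partners with the largest ratios and the 5 genes most like each member.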

Additional observations from a re-analysis of the deposited data

How the results depend on the processing

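No paired analysis was possible because each group had 1 library, and for the same reason no replicate could be left out. Log2 ratios are Fgd5-ko over WT. The Gja1 ratio in basal-like cells was 0.53, 0.36 with TMM and 0.35 with median ratio scaling, 0.59 among cells of 4000 to 12000 UMIs and 0.46 in cells thinned to 2000 UMIs. The Gjb5 ratio of 0.81 turned to -0.34 in that range of UMIs and was 1.80 in thinned cells (10 and 3 UMIs). The Gjc1 ratio of -0.47 was -1.05 in that range. The share of all genes past 1.5-fold was not recomputed for the alternatives that follow, so their counts have no background beside them. The number of connexins past 1.5-fold in basal-like cells, 1, was 3 with TMM, with median ratio scaling, in thinned cells, as a mean over cells and without cycling clusters. It was 2 among cells of 4000 to 12000 UMIs. In the same range the ratio turned to 0.064 for Gja5 in arterial-like, 0.76 for Gja4 in fibroblast-like and -0.56 for Gja4 in lymphatic-like barcodes; Gja4 in fibroblast-like barcodes was 0.90 when thinned (1 UMI each). Gja1 in high endothelial venule-like barcodes, -0.48, was 0.74 in that range and 0.23 when thinned. The highest Gja1 level of a WT state, 143 CPM, was 154 CPM at resolution 1. The share of basal-like cells with Gja1 was 24.95% in Fgd5-ko and 17.9% in WT at 1500 UMIs, and 86.9% and 45.75% unthinned. The share of arterial-like barcodes with Gja4 was 82.1% in Fgd5-ko unthinned and 60.6% in WT at 1500 UMIs. The cause of these moves was not tested. Of the recomputed values, 111 main values and 98 for single genes and classes stayed within their counting interval or, for counts of genes, within 1.5-fold. Beyond it lay 19 main values and 8 of the others, and 1 and 4 more turned their sign. Not all of these are listed in this section. Gja1 in venous-like and Gja4 in arterial-like barcodes of 4000 to 12000 UMIs are given above. Leaving out the barcode with most UMIs of each gene, an alternative chosen after seeing the data, moved no single ratio beyond its counting interval. It turned the median of the 5 in basal-like cells to -0.464. Leaving out a fibroblast-like cluster high in basal markers, also chosen after seeing the data, moved no value beyond its counting interval.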
